A study of Mus musculus with 9 samples.

Results

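Tissue taken 9 days after talc was compared with tissue taken 30 min after talc, a time the study calls day 0. The comparison used the counts of all genes in 6 of the 9 libraries of the series, 3 from each of these days, and the 3 libraries of day 3 shared the estimate of the spread between libraries. All mice were wild type and had received 200 µL of saline with talc at 2.0 g/kg, by needle through the diaphragm into the left side of the chest. The labels name the tissue in different ways, as the adhesion between chest wall and lungs and as the parenchyma of the left lung that is joined to the chest. Day 0 also carried talc and the needle injury, no mice without talc were analysed here, and time since talc cannot be told apart from time since the injection. Age and sex are not in the labels. Nor do the labels tie each library of a day to its own mouse, and p-values then reflect the spread among these libraries alone, part or all of which may be technical.

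Talc is put into the pleural space to make the lung stick to the chest wall. As background, mesothelial cells line both surfaces, particles that cannot be digested are taken up by macrophages, and fibrin that bridges the surfaces is replaced by collagen made by fibroblasts. A macrophage state with high Trem2, Gpnmb, Spp1 and Mmp12 is known from fibrotic organs and foreign bodies and is called scar-associated here. Its genes overlap with those of lysosomes and lipid handling.

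The 9 libraries held between 12769059 and 18701063 counts. Levels are in CPM, read counts scaled to a common library size by trimmed means, and means carry the SD over 3 libraries. The threshold was an adjusted p (Benjamini-Hochberg over all 14794 genes tested, edgeR quasi-likelihood test) under 0.05, and a verb such as rose or fell is used only of genes that passed. Values by library are given in the order of replicates 1, 2 and 3 at day 0 and of replicates 1, 3 and 4 at day 3 and day 9. The tissue in the libraries was mixed. Skeletal muscle genes summed to between 110500 and 146200 CPM at day 0 and to between 76240 and 94510 CPM at day 9. The 12 alveolar type 2 genes summed to between 5202 and 5709 CPM at day 0 and to between 728.5 and 2958 CPM at day 9. The lowest of these was day 9 replicate 1, and the mean of the list was 5.17 log2 CPM there against 6.72 and 6.91 in replicates 3 and 4. Day 0 replicate 3 also stood apart, with the heart myosin gene Myh6 at 494 CPM against 2.98 and 15.8 CPM in replicates 1 and 2. At day 3 the same mean stood at 3.19, 7.87 and 2.29 log2 CPM, a spread that enters the test of day 9 against day 0.

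Of the 14794 genes tested, 2246 were higher at day 9 than at day 0, which is 15.2% of them, and 820 were lower, which is 5.54%. The median log2 fold change over all genes tested was 0.01. Among the genes that passed, 1071 were at least 2-fold higher and 79 at least 10-fold higher, while 242 were at least 2-fold and 7 at least 10-fold lower. The CPM ranges of the 3 and 3 libraries did not overlap for 57.5% of all genes tested. In a fit of the 6 libraries of days 0 and 9 alone, 3318 of 14617 genes were higher and 3014 lower. The share of calls that were higher was 52.4% there, against 73.3% with day 3 in the fit. Counts for a list in either fit are to be read against the counts over all genes in that fit. The authors' deposited table calls 1521 genes higher and 724 lower at the same threshold, of which 1415 and 422 were also called here. Without 1 library at a time, between 1381 and 2797 genes were higher and between 273 and 2221 were lower.

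**Figure D1:**
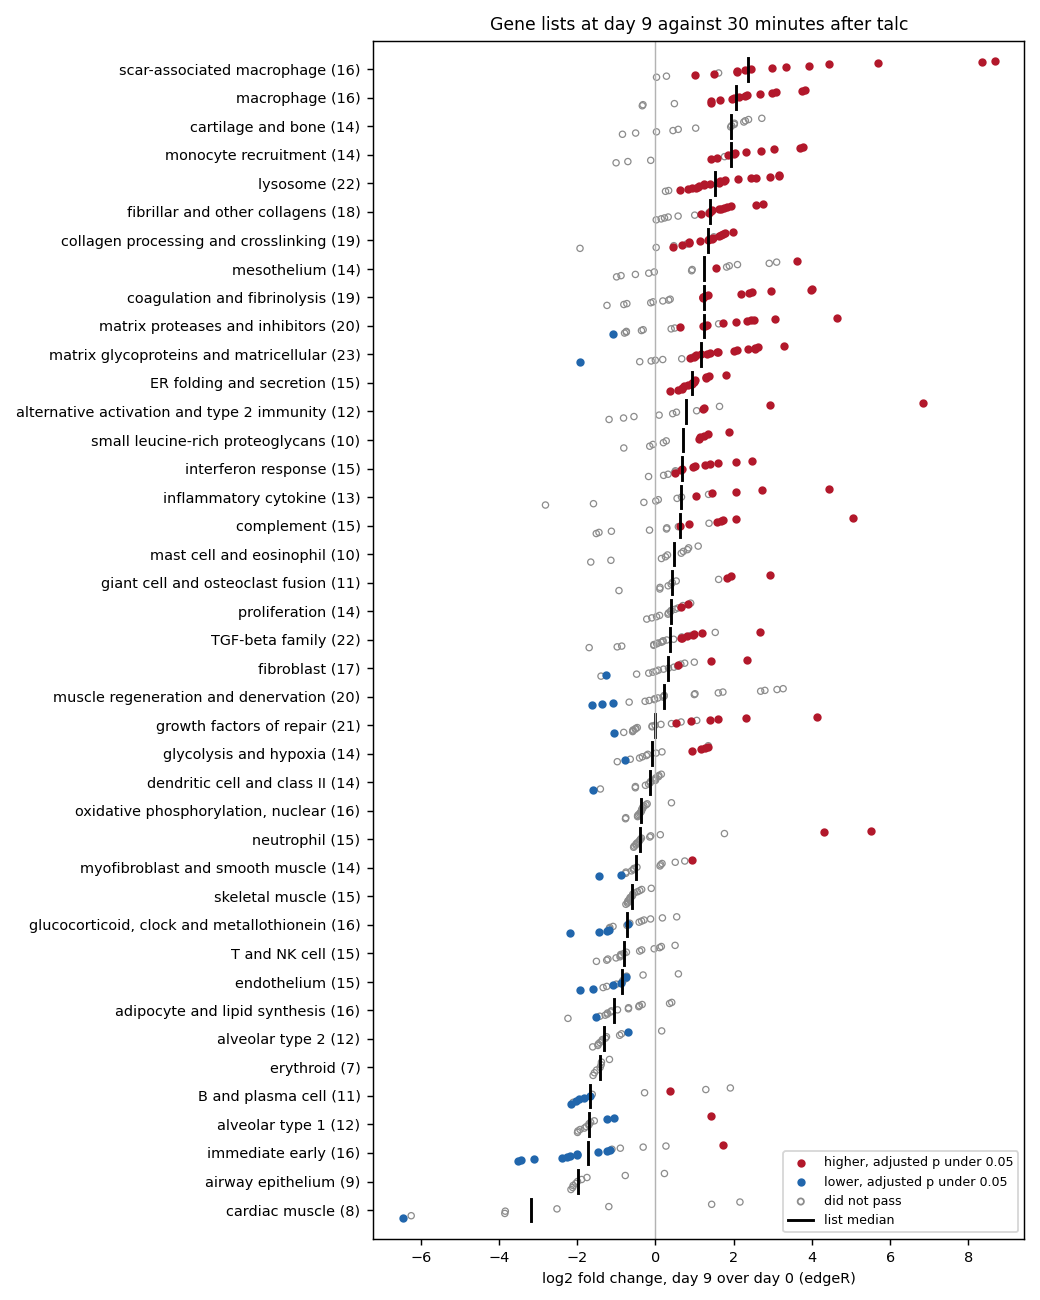
Each point is 1 tested gene of 1 of 41 gene lists, placed by its edgeR log2 fold change of day 9 over day 0 (x axis). Rows are lists with the number of genes tested in brackets, filled points passed the test and the black bar is the list median. Macrophage, lysosome, collagen and recruitment lists lie to the right of 0 with most members filled in red, and immediate early genes lie mostly to the left in blue. Lung, endothelial and erythroid medians lie to the left with few filled points.

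The genes of scar-associated macrophages had the highest median of the 41 lists. Lists and members were chosen with earlier results of these data known. The rank and the counts per list are thus descriptions and not independent evidence. Of 16 genes, 13 rose and none fell, with a median log2 fold change of 2.37 against 0.01 over all genes tested and 15.2% of them called higher. Gpnmb encodes a membrane glycoprotein of lysosome-rich macrophages. It stood at 13, 8.55 and 7.71 CPM at day 0, at 187, 166 and 121 CPM at day 3 and at 5242, 1604 and 2615 CPM at day 9. All 3 libraries of day 9 were above every other library, and replicate 1 was the highest. Gpnmb rose 323-fold (9.75 ± 2.84 to 3154 ± 1878 CPM, SD, n = 3, log2 fold change 8.34, SE 0.57, edgeR adjusted p = 0.000125). Mmp12, the macrophage elastase, went from 4.39, 1.87 and 1.07 CPM to 1223, 793 and 986 CPM and rose 408-fold (edgeR adjusted p = 0.000187). Its day 9 libraries lay close together, and its 3 day 0 libraries were all under 5 CPM. Trem2, a receptor that senses lipids and debris, went from 2.28, 2.19 and 2.14 to 157, 72.6 and 113 CPM, a 51.6-fold rise (edgeR adjusted p = 0.0001).

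Most of these genes were also above their level of day 3. Gpnmb was 20-fold higher at day 9 than at day 3 (edgeR adjusted p = 0.0042) and Mmp12 9.89-fold higher (0.011). Lgals3, encoding galectin 3, rose 21.6-fold over day 0 to 920.1 ± 349.7 CPM and was 3.65-fold above day 3 (edgeR adjusted p = 0.00743). Fabp5, a fatty acid carrier, was 7.9-fold above day 0 and 3.38-fold above day 3 (edgeR adjusted p = 0.0111). Spp1, encoding osteopontin, differed from this. It rose 10.1-fold over day 0, from 267, 191 and 124 to 2518, 2191 and 1181 CPM, and its day 9 and day 3 ranges overlapped (1250.1 ± 427 CPM at day 3, adjusted p for day 9 against day 3 = 0.329). Plin2, which coats lipid droplets, was 5.41-fold above day 0, and 439.6, 269 and 297 CPM at day 9 lay above 229.7, 195 and 192 CPM at day 3 without passing (adjusted p = 0.0976).

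Of 16 general macrophage genes, 13 rose and none fell, with a median of 2.06. Adgre1, a surface receptor used to mark macrophages, stood at 15.6, 13.7 and 16.2 CPM at day 0 and at 152, 91.2 and 115 CPM at day 9 (7.87-fold, edgeR adjusted p = 0.000179). The lowest day 9 library was above all day 0 libraries by a wide margin. The endosomal protein gene Cd68 rose 13.5-fold and the lysosomal protease gene Ctss 14.1-fold, and both were above day 3 as well (2.31-fold, adjusted p = 0.0298, and 2.52-fold, 0.0158). Others stood at similar values on days 3 and 9. Itgam, the integrin chain CD11b, was at 218, 206 and 194 CPM at day 3 and 228, 198 and 175 CPM at day 9, against 50.2, 54 and 46.5 CPM at day 0. Csf1r, the receptor of the growth factor that macrophages need to survive, rose 2.67-fold over day 0, and C1qa, a chain of complement C1q made by macrophages, 4.92-fold. The summed CPM of this list was 1664 to 1822 at day 0 and 5374 to 6909 at day 9. In bulk tissue, more cells of a type and more RNA per cell cannot be told apart. Lung and muscle lists were lower in the same libraries. With either the alveolar type 2 mean or the skeletal muscle mean as a covariate of the fit, 13 macrophage and 13 scar-associated genes passed as higher, while the muscle covariate lowered the count over all genes from 2246 to 1661. The part of tissue makeup in the size of these rises was not tested.

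**Figure D2:**
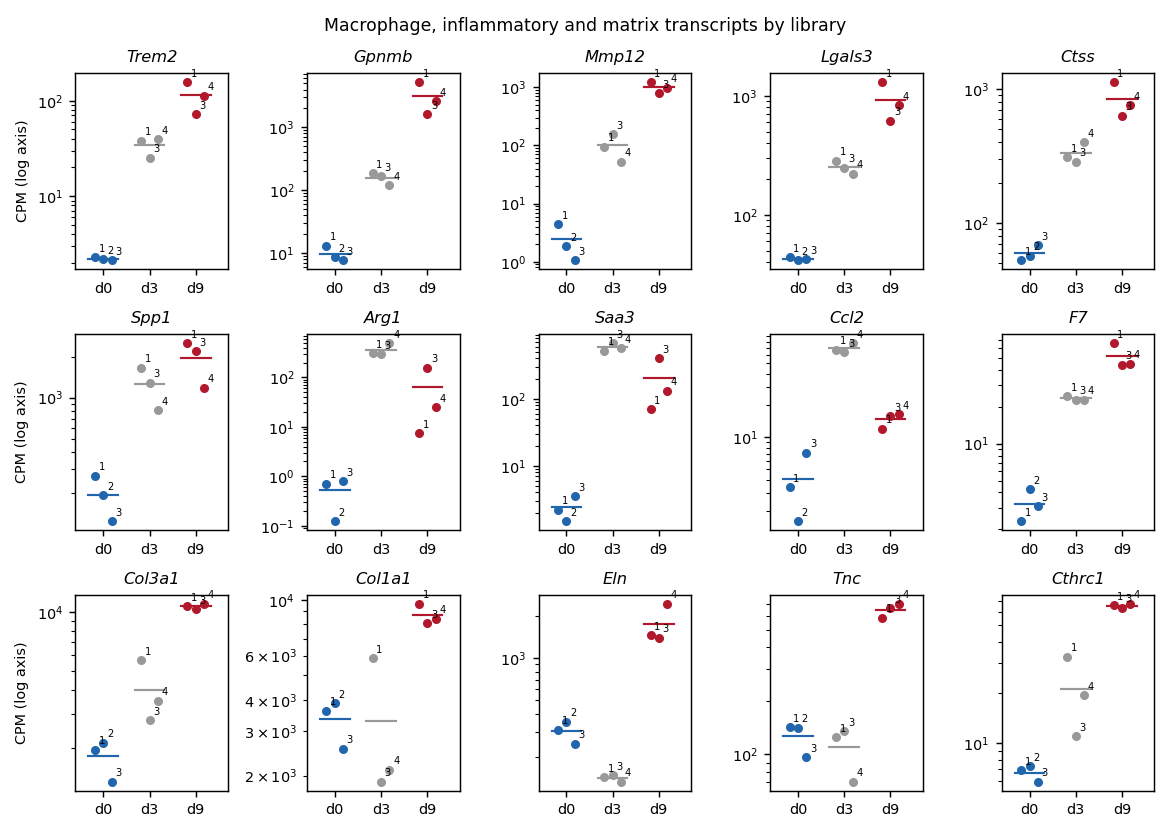
CPM of 15 transcripts in each library (log axis, different in each panel) at day 0 (d0, blue), day 3 (d3, grey) and day 9 (d9, red), with replicate numbers beside the points and the mean of 3 libraries as a bar. Gpnmb, Trem2, Lgals3 and Ctss climb from d0 to d3 to d9, Eln and Tnc are high at d9 alone, and Arg1, Saa3 and Ccl2 lie between d0 and d3 at d9.

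Lysosomal genes rose almost throughout. Of 22 genes for hydrolases, membrane proteins and proton pump subunits, 20 rose and none fell, with a median of 1.52, and for all 22 the CPM ranges of the days did not overlap (57.5% of all genes tested in either direction). Lipa, the acid lipase that splits cholesterol esters, stood at 32.7, 33 and 38.2 CPM at day 0 and at 469, 181 and 272 CPM at day 9. All day 9 libraries were above all others, replicate 1 most. Lipa rose 8.88-fold (log2 fold change 3.15, SE 0.32, edgeR adjusted p = 0.000436) and was 4.14-fold above day 3 (adjusted p = 0.00938). Gla, the alpha-galactosidase that degrades glycolipids, went from 4.1, 5.56 and 6.53 to 68.7, 32.5 and 43.2 CPM and rose 8.9-fold. The cathepsin genes Ctsb, Ctsl and Ctsz, proteases of the lysosome, rose 5.93-fold, 7.59-fold and 5.48-fold. Glb1, the beta-galactosidase, rose 3.16-fold.

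Some of these transcripts became very abundant. Psap, the precursor of the saposins that present lipids to hydrolases, went from 917, 929.7 and 979 CPM to 5615, 2921 and 3593 CPM (4.29-fold, edgeR adjusted p = 0.000852). Ctsd, the aspartic protease cathepsin D, went from 626, 670.0 and 619 CPM to 4466, 2264 and 2689 CPM (4.92-fold, 0.00213). Ftl1, the light chain of the iron store ferritin, rose 5.16-fold to 3634 ± 1061 CPM, although reads of its pseudogenes may be shared with it. In each of these genes day 9 replicate 1, which had the lowest alveolar type 2 mean of days 0 and 9, was the highest, and no day 9 library came near the day 0 range. Atp6v0d2, a proton pump subunit of macrophages and osteoclasts chosen after its values were seen, averaged 11.4 ± 1.71 CPM at day 0 and was at 17.3, 19.2 and 6.85 CPM at day 3 and 280.2, 98.7 and 139 CPM at day 9. It rose 15.1-fold over day 0 and 11.9-fold over day 3 (edgeR adjusted p = 0.001 and 0.00737).

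Promoters were searched because lysosomal genes are known to share the E-box CACGTG, the core bound by the MITF and TFEB family. RefSeq promoters of GRCm38.p6, from 250 bases before to 50 after a start site, were found for 15 of the 22 lysosome genes, with 18 entries. CACGTG, which reads the same on both strands, was in 44.4% of these 18 promoters. It was in 9.34% of the 14781 promoters of genes tested and in 7.15% of all 32851 promoters. Among 17 promoters of the scar-associated macrophage list, to which Ctsd belongs here, it was in 11.8%, near the share of all genes tested. This is a description of the letters and says nothing about binding in this tissue. The 250 bases before the start sites of Gla (chrX:134601006-134601255, minus strand), Ctsd (chr7:142387828-142388077, minus strand) and Glb1 (chr9:114400828-114401077, plus strand) are shown 5′ to 3′ as examples among the genes that rose, with the E-box in capitals.
Gla: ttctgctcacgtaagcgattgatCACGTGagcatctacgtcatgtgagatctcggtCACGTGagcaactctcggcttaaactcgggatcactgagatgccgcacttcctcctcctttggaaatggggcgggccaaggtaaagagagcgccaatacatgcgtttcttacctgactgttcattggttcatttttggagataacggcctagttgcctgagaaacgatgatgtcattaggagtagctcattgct
Ctsd: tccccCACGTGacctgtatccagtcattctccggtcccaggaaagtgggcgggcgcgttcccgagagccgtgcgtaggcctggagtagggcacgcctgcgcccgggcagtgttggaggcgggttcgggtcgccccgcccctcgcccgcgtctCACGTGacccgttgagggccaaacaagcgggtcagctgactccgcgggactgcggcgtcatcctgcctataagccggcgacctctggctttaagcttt
Glb1: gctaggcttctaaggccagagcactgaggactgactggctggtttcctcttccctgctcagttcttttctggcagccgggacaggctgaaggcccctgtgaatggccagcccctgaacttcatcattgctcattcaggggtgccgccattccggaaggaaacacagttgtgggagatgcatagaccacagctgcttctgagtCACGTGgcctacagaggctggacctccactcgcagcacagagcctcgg
Gla and Ctsd hold 2 copies and Glb1 holds 1.

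Of 11 genes known from the fusion of macrophages into giant cells or osteoclasts, 3 rose and none fell, with a median of 0.43 and 15.2% of all genes tested called higher. Of the 11, 5 were higher in the fit of the 6 libraries, against 3318 of 14617 genes. Cd200r1, an inhibitory receptor of myeloid cells, went from 2.05, 1.87 and 1.97 to 23.1, 11.8 and 10.4 CPM (7.67-fold, edgeR adjusted p = 0.000661), and Tnfrsf11a, the receptor RANK, rose 3.81-fold. Dcstamp, a membrane protein needed for fusion, stood at 1.46, 1.25 and 0.788 CPM at day 0, 1.06, 1.59 and 0.761 CPM at day 3 and 4.93, 3.9 and 3.57 CPM at day 9. It rose 3.53-fold over day 0 (adjusted p = 0.0105) and 3.6-fold over day 3 (0.0224), all at low levels.

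Signals that draw and keep monocytes were raised. Of 14 recruitment genes 10 rose and none fell, with a median of 1.93. Ccl8, a monocyte chemokine, went from 1.46, 1.44 and 1.63 CPM to 19.1, 24.8 and 15.1 CPM (13-fold, log2 fold change 3.70, SE 0.22, edgeR adjusted p = 0.0001). Ccl9 stood at 153, 155 and 151 CPM at day 9 against 17.7, 20.3 and 32.3 CPM at day 0 and 283, 212 and 343 CPM at day 3. Csf1, the macrophage growth factor, rose 2.98-fold to 95.6 ± 9.02 CPM, and Csf2rb, the shared receptor chain of GM-CSF and interleukin 3, rose 4.94-fold. The chemokine Ccl2 and its receptor Ccr2, which bring monocytes out of the blood, were below their day 3 levels. Ccr2 was at 50.1, 53.4 and 58.4 CPM, 2.69-fold above day 0 and 1.94-fold below day 3 (edgeR adjusted p = 0.000791 and 0.0149). Ccl2 was at 3.39, 1.62 and 7.15 CPM at day 0, 67.3, 63.7 and 77.8 CPM at day 3 and 12, 15.8 and 16.5 CPM at day 9. It was 3.62-fold above day 0 (adjusted p = 0.0159) and 4.71-fold below day 3 (0.0164), and the first call was lost when day 0 replicate 1 (0.0713) or day 9 replicate 4 (0.0557) was left out, within 0.000142 to 0.0713 over all alternatives. Ccl7 had a like pattern of levels, 63.2, 53.1 and 77.7 CPM at day 3 and 10.2, 14.2 and 15.1 CPM at day 9, and did not pass against the 1.23, 1.25 and 9.06 CPM of day 0 (adjusted p = 0.0968).

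Myeloid receptors were among the genes with the smallest p of all. Lilr4b, a receptor of the leukocyte immunoglobulin-like family, went from 5.56, 4.99 and 5.29 to 80.6, 54.5 and 59.1 CPM (12.2-fold, edgeR adjusted p = 7.59e-05). The C-type lectins Clec4e and Clec4d, which sense mycobacterial glycolipids, stood at 47.8, 41.3 and 34.1 and at 52.2, 56.5 and 47.6 CPM at day 9, 11.5-fold and 10.3-fold above day 0. C3ar1 and C5ar1, the receptors for the complement fragments C3a and C5a, rose 33.1-fold and 4.19-fold. C5ar1 was tight at both times, with 14, 12.9 and 14.2 CPM at day 0 and 59.3, 53.9 and 59 CPM at day 9. Gpr35, a G protein-coupled receptor, rose 7.59-fold, Tnfrsf1b, the TNF receptor 2 gene, 5.56-fold, and Pla2g7, a secreted phospholipase that degrades platelet-activating factor, 7.22-fold. Tnfrsf1b and Pla2g7 were also above day 3 (1.74-fold, adjusted p = 0.0179, and 1.86-fold, 0.017).

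Among 13 inflammatory cytokine genes 5 rose, with a median of 0.66, against 15.2% of all genes tested called higher. The count fell to 3 without replicate 1 or 3 of day 0 or replicate 3 or 4 of day 9. It fell to 2 without replicate 2 of day 0. Il1rn, whose product blocks the receptor of interleukin 1, went from 5.38, 4.49 and 3.77 CPM to 142, 77.6 and 77.3 CPM and rose 21.7-fold (edgeR adjusted p = 0.000125). Tnf rose 6.66-fold, from 0.644, 0.687 and 1.24 to 4.06, 8.51 and 4.66 CPM. Il6 did not pass (1.35, 0.749 and 7.49 CPM at day 0 and 0.217, 0.974 and 0.0728 CPM at day 9, adjusted p = 0.0814), but stood below day 3 (adjusted p = 0.0464). Of 15 neutrophil genes 2 rose, near the 15.2% of all genes tested called higher. Both are chemokines for neutrophils and not markers of the cells. They were Cxcl5 and Cxcl3. The granule protein gene S100a8 was at 327, 309 and 173 CPM at day 0 and 102, 229 and 255 CPM at day 9, ranges that overlapped (adjusted p = 0.642).

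Some genes that rose strongly differed widely among the 3 libraries of day 9. Arg1, which encodes arginase 1, was at 7.39, 156 and 25.3 CPM at day 9, against 0.702, 0.125 and 0.788 CPM at day 0 and 309, 295 and 497 CPM at day 3. Replicate 3 was far above replicate 1, and all 3 lay above day 0 and below day 3. Arg1 rose 114-fold over day 0 (log2 fold change 6.83, SE 1.24, edgeR adjusted p = 0.00593), and the difference from day 3 did not pass (0.124). Its day 0 call was not reached with limma-voom (adjusted p = 0.219, within 0.00218 to 0.219 over all alternatives). Saa3, a serum amyloid A gene with close paralogs, had the same order of libraries, with 69.9, 403 and 132 CPM at day 9, and rose 83.4-fold (adjusted p = 0.000609). Acod1, which makes itaconate, was at 6.16, 27.3 and 15.9 CPM and rose 68-fold from 0.232 ± 0.106 CPM. Cxcl5 was at 4.78, 22.4 and 11.2 CPM, and Timp1, an inhibitor of matrix proteases, at 38.2, 150.3 and 55.6 CPM against 12.2, 10.7 and 6.7 CPM at day 0. These 5 genes were put together after their values were seen, since in each replicate 1 was the lowest and replicate 3 the highest of day 9, and the order is given as a description. Of 12 genes of alternative activation, 4 rose, Arg1 among them, with a median of 0.79.

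Matrix genes rose broadly. Of 18 collagen genes 11 rose and none fell, with a median of 1.39, and the list summed to between 9739 and 14230 CPM at day 0 and between 34960 and 36950 CPM at day 9. Col3a1, the type III collagen of young scar, stood at 1969, 2129 and 1343 CPM at day 0, 5651, 2793 and 3502 CPM at day 3 and 10766, 10342 and 11039 CPM at day 9. The 3 day 9 libraries lay close together and above all others. Col3a1 rose 5.91-fold (log2 fold change 2.56, SE 0.32, edgeR adjusted p = 0.000928), the largest gain in CPM of any gene. The type I collagen genes Col1a1 and Col1a2 came next in that gain. Col1a1 was at 3622, 3884 and 2561 CPM at day 0 and 9628, 8063 and 8406 CPM at day 9, ranges that did not overlap, and did not pass with day 3 in the fit (adjusted p = 0.0544), where its libraries ran from 1888 to 5853 CPM. In the fit of the 6 libraries of days 0 and 9, Col1a1 had an adjusted p of 0.00127, the lowest of all alternatives, the highest being 0.312. Without day 3 replicate 1, 3 or 4 it was 0.00367, 0.02 and 0.0371. Col1a2 is among the genes that rose (2.56-fold, edgeR adjusted p = 0.0465). Its call ended without any 1 of the day 0 or day 9 libraries, and its adjusted p was within 0.00116 to 0.277 over all alternatives.

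The other collagen genes that rose were Col14a1, 3 chains of collagen V (Col5a1, Col5a2 and Col5a3), 3 of collagen VI (Col6a1, Col6a2 and Col6a3), Col8a1 and Col18a1. The call of Col8a1 (adjusted p = 0.0157) did not hold once replicate 4 of day 9 was left out (0.0607, the highest of the alternatives, the lowest being 0.00046). Col14a1, which sits on fibrils, went from 64.3, 78.3 and 67.3 to 434, 431 and 548 CPM (6.73-fold, edgeR adjusted p = 0.000251) and was 4.49-fold above day 3 (0.00416). Col6a1 and Col6a2, chains of the beaded filament collagen VI, rose 3.08-fold and 3.19-fold together. Col6a1 was at 359, 263 and 210.2 CPM at day 3, near its day 0 values of 309.6, 374 and 300.3 CPM, and at 930.5, 1038 and 1064 CPM at day 9 (3.64-fold above day 3, adjusted p = 0.00451).

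Enzymes that process and cross-link collagen moved with it, with 14 of 19 higher, none lower and a median of 1.35. Loxl2 and Loxl1, lysyl oxidases that cross-link collagen and elastin, rose 3.96-fold and 3.3-fold, and Lox 2.74-fold. Lox was at 232, 143 and 175 CPM at day 3 and 189.8, 239 and 238 CPM at day 9, while Loxl1 went from 115, 88.8 and 127 to 264, 298 and 349 CPM between these days (2.75-fold, edgeR adjusted p = 0.00491). Adamts2 and Bmp1, which cut the ends off procollagen, rose 3.06-fold and 3.42-fold over day 0 and 3.49-fold and 2.61-fold over day 3. Plod3, a lysyl hydroxylase, had one of the smallest spreads, with 59.2, 56.2 and 57.8 CPM at day 0 and 107, 105 and 104 CPM at day 9 (1.83-fold, adjusted p = 0.000467).

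Of 23 matrix glycoproteins and matricellular genes, 16 rose and 1 fell, with a median of 1.17. Eln, the elastin gene, had a course of its own. It stood at 311, 353 and 246 CPM at day 0, 143, 148 and 132 CPM at day 3 and 1456, 1389 and 2419.8 CPM at day 9. Every day 3 library was below every day 0 library, and every day 9 library was above both. Eln rose 5.79-fold over day 0 (edgeR adjusted p = 0.000387) and 12.4-fold over day 3 (0.00157). Tnc, encoding tenascin C of healing wounds, was at 142, 141 and 96.2 CPM at day 0, 125, 135 and 70.1 CPM at day 3 and 584, 657 and 697 CPM at day 9, 5.11-fold above day 0 and 5.88-fold above day 3 (adjusted p = 0.000611 and 0.00403). Fbn1, the fibrillin scaffold of elastic fibres, rose 2.97-fold. Fn1, fibronectin, rose 6.19-fold and Vcan, the large proteoglycan versican, 5.84-fold, and both were already raised at day 3 (1626, 1576 and 1472 and 86.6, 95.8 and 85.7 CPM).

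Cthrc1, known from fibroblasts that make much collagen in lung fibrosis, went from 6.91, 7.3 and 5.91 CPM at day 0 through 32.6, 11 and 19.2 CPM at day 3 to 65.9, 63.6 and 67.1 CPM at day 9 (9.77-fold over day 0, edgeR adjusted p = 0.000486). The day 9 libraries differed by less than 4 CPM. Postn, periostin, was 2.07-fold above day 0 (adjusted p = 0.0189) and 3.95-fold above day 3 (0.00645). Its call against day 0 ended without day 0 replicate 1 (0.0562), day 9 replicate 1 (0.0646) or day 9 replicate 4 (0.062), and its adjusted p was within 0.000461 to 0.134 over all alternatives. Among 10 small leucine-rich proteoglycans, which coat collagen fibrils, 5 rose with a median of 0.70, and 3 rose without any day 0 library or day 9 replicate 1 or 4. Dpt, dermatopontin, went from 99.7, 119 and 107 to 452, 300.2 and 451 CPM (3.69-fold, adjusted p = 0.000419). Dcn, decorin, rose 2.55-fold and Bgn, biglycan, 2.2-fold.

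Of 20 matrix proteases and their inhibitors 11 rose and 1 fell, with a median of 1.23. Mmp19, a matrix metalloprotease, went from 14.1, 15.1 and 17.6 CPM to 469, 238 and 459 CPM (24.9-fold, edgeR adjusted p = 0.000387). Mmp14, the membrane-bound collagenase, rose 4.2-fold and Mmp2, the gelatinase that it activates, 2.51-fold. Mmp2 was at 239.9, 267 and 168 CPM at day 0 and 215, 133 and 101 CPM at day 3. These ranges overlapped, and the difference did not pass (edgeR adjusted p = 0.175). At day 9 Mmp2 was at 594, 534 and 565 CPM. Adam8, a metalloprotease of leukocytes, rose 5.73-fold, and Adamts4, which cuts aggrecan and versican, 3.3-fold.

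Of 22 TGF-beta family genes 7 rose and none fell, with a median of 0.38, against 15.2% of all genes tested called higher. Of the 22, 4 rose without day 0 replicate 1 or 2 or day 9 replicate 4, and 11 with the alveolar type 2 covariate. Tgfb1, the main fibrogenic ligand, rose 1.96-fold (53.3, 53.2 and 48.4 to 124, 86.3 and 93.6 CPM, edgeR adjusted p = 0.00255). Tgfb2 rose 2.29-fold and was 2.81-fold above day 3 (adjusted p = 0.00578). Fstl1, a secreted follistatin-like protein, stood at 168, 174 and 166 CPM at day 0 and 926, 1147 and 1138 CPM at day 9, a rise of 6.33-fold. Of 21 growth factors of repair 6 rose and 1 fell, with a median of -0.01, against 15.2% and 5.54% of all genes tested. The 6 became 2 without day 0 replicate 1 or 2 or day 9 replicate 4 and 3 without day 9 replicate 3. Igf1, a growth factor also made by macrophages, went from 50.7, 47.8 and 47.2 to 154, 136 and 148 CPM (3-fold, adjusted p = 0.000713). Mdk, the heparin-binding growth factor midkine, went from 8.72, 8.86 and 6.36 CPM at day 0 and 7.6, 6.52 and 4.03 CPM at day 3 to 34.8, 39.3 and 45.3 CPM at day 9 (4.98-fold over day 0 and 6.54-fold over day 3, adjusted p = 0.000442 and 0.00276). The gene that fell was Vegfa, the vessel growth factor also made by alveolar type 1 cells, from 443, 488 and 533 to 181, 267 and 254 CPM (2.09-fold, adjusted p = 0.00434).

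Genes of folding and secretion in the endoplasmic reticulum, which carries collagen and other secreted proteins, rose in 15 of 15 cases, with a median of 0.94. The folds were small and the libraries tight. Pdia3, a disulfide isomerase, was at 213, 228 and 221 CPM at day 0 and 446, 452 and 399.6 CPM at day 9 (1.96-fold, edgeR adjusted p = 0.000633). Sec24d, a coat protein of the vesicles that export procollagen, rose 2.44-fold and was above day 3 (1.62-fold, adjusted p = 0.0163). The stress-responsive genes Sdf2l1 and Manf rose 2.6-fold and 1.9-fold and stood near their day 3 values. Without day 0 replicate 3 and day 9 replicate 1 together, an alternative chosen after seeing the data, 9 of the 15 passed.

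Of 17 general fibroblast genes 3 rose and 1 fell, with a median of 0.33, against 15.2% and 5.54% of all genes tested called higher and lower. Thy1, a surface protein of fibroblasts, went from 25.7, 22 and 22 to 68.2, 49.1 and 67.9 CPM (2.66-fold, edgeR adjusted p = 0.00094). S100a4, found in fibroblasts and macrophages, rose 5.05-fold. Pdgfra and Pdgfrb, on the same list, did not pass. Their mean at day 9 minus that at day 0 was -6.82 and 1.26 CPM. The gene that fell was Dpep1, with a difference of -27.87 CPM. Of the 17, 7 were higher and 3 lower in the fit of the 6 libraries, against 3318 and 3014 of 14617 genes. Without day 3 replicate 1, 3 or 4, 5, 6 and 7 of the 17 were higher. Of 14 myofibroblast and smooth muscle genes 1 rose and 2 fell, with a median of -0.51, against the same 15.2% and 5.54%. Of these genes 3 rose without day 9 replicate 1, and 4 fell without day 3 replicate 3. In the fit of the 6 libraries 5 fell, against 3014 of 14617 genes. Acta2, the smooth muscle actin of myofibroblasts, was at 133, 113 and 102 CPM at day 0 and 116, 223 and 246 CPM at day 9. Replicate 1 of day 9 lay inside the day 0 range and the other libraries above it. Acta2 did not pass (adjusted p = 0.0836), and had an adjusted p of 0.00993 without replicate 1 of day 9 (within 0.00993 to 0.374 over all alternatives). Myh11, the myosin of smooth muscle, fell 1.83-fold, from 113, 110.2 and 120.0 to 57.4, 58.8 and 71.1 CPM (adjusted p = 0.00128).

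Mesothelial transcripts differed between libraries of the same day. Of 14 tested 2 rose, Clu and Wt1, with a median of 1.25, near the 15.2% of all genes tested called higher. That count was 0 without day 0 replicate 1 or 2, 4 without day 0 replicate 3, and 1 without day 3 replicate 1 or any day 9 library. Msln, mesothelin, was at 3.22, 5.56 and 19.6 CPM at day 0 and 5.58, 91.6 and 24.3 CPM at day 9, and Upk3b, a surface protein of the same cells, at 2.69, 3.43 and 40.7 and 10.4, 118 and 37 CPM. Replicate 3 was the highest library of both days, the ranges overlapped and neither gene passed (adjusted p = 0.201 and 0.302). Without day 0 replicate 3 and day 9 replicate 1 together, 6 of the 14 rose. Cdh3, Krt14 and Clca3a2, which are not on the list, had some of the largest folds of all genes. Cdh3, P-cadherin, went from 0.234, 0.562 and 0.394 CPM to 6.74, 36.6 and 23 CPM (55.1-fold, edgeR adjusted p = 0.00109, and 0.0612 with limma-voom, within 5.29e-16 to 0.0612 over all alternatives). Krt14, a keratin of basal epithelia, had 1 read in the 3 day 0 libraries together and stood at 0.942, 19.6 and 6.41 CPM at day 9 (edgeR adjusted p = 0.00703, and 0.15 with limma-voom, within 2.12e-07 to 0.15 over all alternatives). Clca3a2, a chloride channel regulator with close paralogs, had 3 reads at day 0 and 5.79, 35 and 22.5 CPM at day 9 (edgeR adjusted p = 0.00151, and 0.106 with limma-voom, within 1.66e-12 to 0.106 over all alternatives). In these genes, as in Msln and Upk3b, replicate 1 was the lowest and replicate 3 the highest of day 9.

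Of 19 coagulation and fibrinolysis genes 11 rose and none fell, with a median of 1.23. F7, coagulation factor VII, went from 2.34, 4.25 and 3.1 CPM to 66.1, 43.8 and 44.7 CPM (16-fold, edgeR adjusted p = 0.0001) and was 2.21-fold above day 3 (0.0194). F10, factor X, went the other way after day 3. It was at 3.63, 4.49 and 4.05 CPM at day 0, 41.5, 44.9 and 53.4 CPM at day 3 and 35.5, 31.8 and 27 CPM at day 9, 7.74-fold above day 0 and 1.48-fold below day 3 (adjusted p = 9.3e-05 and 0.0469). Plau, the urokinase that starts fibrin breakdown, rose 5.24-fold, and Procr, the protein C receptor, 4.56-fold. Of 15 complement genes 7 rose, with a median of 0.62, against 15.2% of all genes tested called higher. Of the 15, 4 rose without day 0 replicate 1 or 2 or day 9 replicate 3. C1s1, a protease of the C1 complex, went from 88, 87 and 119 to 239, 406 and 291 CPM (3.19-fold, adjusted p = 0.00185). Of 15 interferon response genes 10 rose, with a median of 0.67, and 6 without day 0 replicate 2. Oas1a, an antiviral RNA sensor, rose 5.51-fold, from 4.21, 3.12 and 4.9 to 28, 15.9 and 23.9 CPM (adjusted p = 0.00116).

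Immediate early genes, which are transcribed within minutes of injury or of handling, were far lower at day 9. Of 16 tested 11 fell and 1 rose, with a median of -1.73, against 5.54% of all genes tested called lower. Fos, a subunit of the factor AP-1, stood at 299.7, 201 and 286 CPM at day 0 and 30.7, 29.2 and 30.9 CPM at day 9. The day 9 libraries were nearly equal, and the lowest day 0 library was far above them. Fos fell 8.66-fold (log2 fold change -3.11, SE 0.24, edgeR adjusted p = 0.000187). Egr1, a zinc finger factor, fell 10.9-fold and Fosb 11.4-fold. Fosb was at 39.9, 25.7 and 106 CPM at day 0, highest in replicate 3, and at 3.62, 5.03 and 6.48 CPM at day 9. Dusp1, a phosphatase that shuts off MAP kinases, fell 4.78-fold, Nr4a1, an orphan nuclear receptor, 4.51-fold, and Ier2 4.02-fold. Zfp36, which destabilises cytokine mRNA, fell 5.26-fold and was below day 3 as well (1.94-fold, adjusted p = 0.038). The gene that rose, Egr2, named after its values were seen, stood at 6.67, 6.12 and 15.5 CPM at day 0, 16.9, 18.9 and 19 CPM at day 3 and 40.3, 21.5 and 32.6 CPM at day 9 (3.33-fold, adjusted p = 0.0119). All day 9 libraries of Egr2 were above all of day 0, and its call ended without day 0 replicate 1 (adjusted p = 0.053, within 8.39e-05 to 0.134 over all alternatives).

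The CArG box, the site of serum response factor that is known from immediate early promoters, was searched on both strands in the RefSeq promoters of 13 of these 16 genes. Among them it was found in Egr2 and Zfp36 only, in 29.4% of 17 promoters since Egr2 has several start sites, against 1.34% of promoters of genes tested and 1.63% of all promoters. The pair is shown since one gene rose and the other fell. The 250 bases before a start site of Egr2 (chr10:67537619-67537868, plus strand) and of Zfp36 (chr7:28379229-28379478, minus strand), both from GRCm38.p6, read as follows, with the CArG box in capitals.
Egr2: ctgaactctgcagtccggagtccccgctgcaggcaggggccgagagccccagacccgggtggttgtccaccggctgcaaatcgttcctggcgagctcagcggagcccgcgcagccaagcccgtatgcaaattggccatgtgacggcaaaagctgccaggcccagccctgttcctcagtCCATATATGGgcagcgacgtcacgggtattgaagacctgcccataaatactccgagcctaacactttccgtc
Zfp36: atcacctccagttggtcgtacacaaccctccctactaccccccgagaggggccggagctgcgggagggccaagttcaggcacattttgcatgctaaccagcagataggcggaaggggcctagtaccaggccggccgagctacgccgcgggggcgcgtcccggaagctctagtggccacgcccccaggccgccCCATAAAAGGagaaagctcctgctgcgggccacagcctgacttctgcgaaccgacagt
The letters alone do not say whether the site was used at either time.

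**Figure D3:**
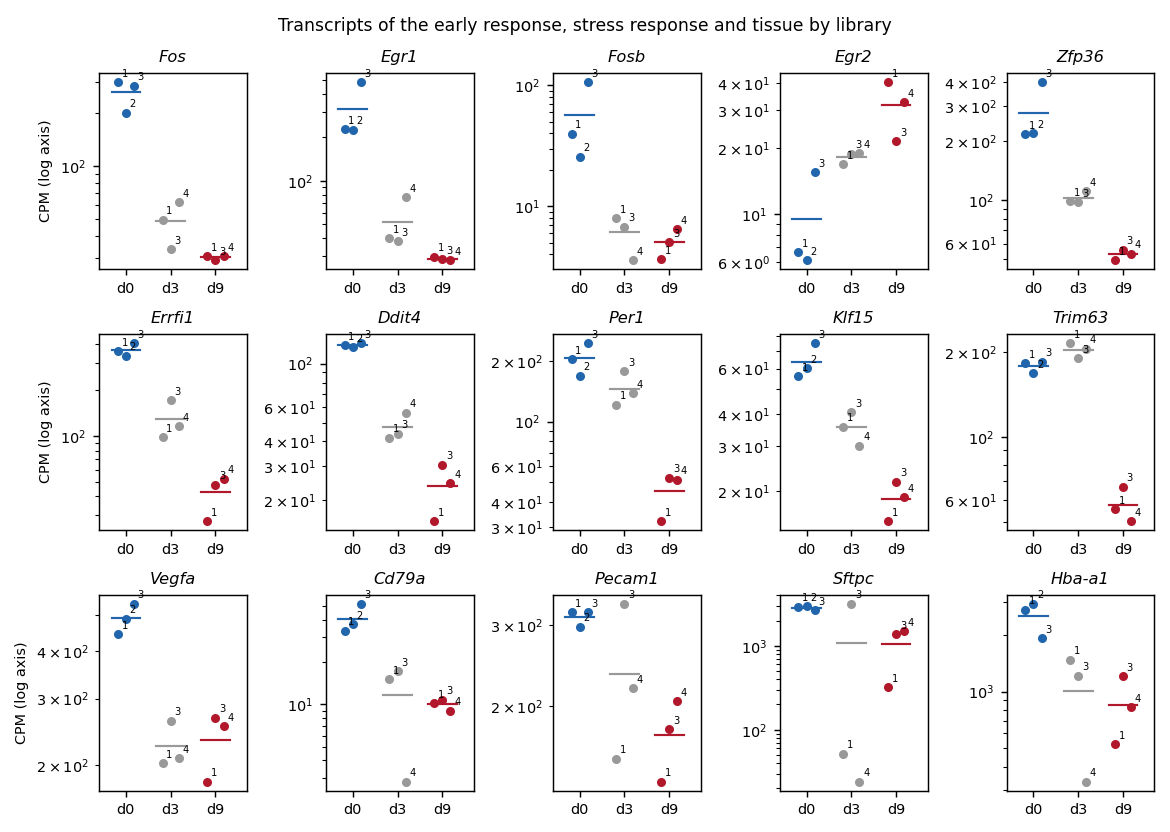
CPM of 15 transcripts in each library (log axis, different in each panel) at day 0 (d0, blue), day 3 (d3, grey) and day 9 (d9, red), with replicate numbers and the mean of 3 libraries as a bar. Fos, Egr1, Fosb and Zfp36 are highest at d0, Egr2 rises, Errfi1, Ddit4, Per1 and Klf15 step down over the days, and Trim63 is low at d9 alone. Sftpc and Pecam1 spread widely at d3.

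Among the genes with the smallest p or the largest fold of all that fell were several outside the immediate early list. Errfi1, a feedback inhibitor of the EGF receptor, stepped down from 359, 335 and 407 CPM at day 0 through 98, 172 and 116 CPM at day 3 to 27.6, 47.7 and 52.2 CPM at day 9 (8.62-fold below day 0 and 3.02-fold below day 3, edgeR adjusted p = 0.000344 and 0.0148). Ddit4, an inhibitor of mTOR signalling induced by stress and glucocorticoid, went from 124, 121 and 127 to 15.7, 30.5 and 24.5 CPM (5.26-fold, adjusted p = 0.000359). Klf15, a factor induced by glucocorticoid in muscle, fell 3.42-fold, and Depp1, a target of FOXO factors, 5.28-fold. Gadd45g fell 3.66-fold and Rgcc, a regulator of cell cycle genes, 2.32-fold. Odf3l2 fell 9.58-fold, from 31.6 ± 3.37 to 3.31 ± 1.09 CPM.

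Of 16 genes of the glucocorticoid, clock and metallothionein list 5 fell and none rose, with a median of -0.72. In the fit of the 6 libraries alone 11 fell, and 10 and 8 fell without day 3 replicate 3 or 4. Per1, a clock gene that glucocorticoid also induces, was at 204, 168 and 245 CPM at day 0, 121, 178 and 138 CPM at day 3 and 32.2, 52.7 and 51.5 CPM at day 9 (4.53-fold below day 0 and 3.21-fold below day 3, edgeR adjusted p = 0.000594 and 0.00765). Tsc22d3, which encodes the glucocorticoid-induced protein GILZ, fell 2.28-fold to 119 ± 4.81 CPM. Fkbp5, another gene induced by glucocorticoid, was at 40.1, 47.7 and 53.5 CPM at day 0 and 33.4, 47 and 34.7 CPM at day 9 and did not pass (adjusted p = 0.276). The hour of tissue collection is not in the labels, so its part in these values was not tested.

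The atrogenes Trim63 and Fbxo32, ubiquitin ligases that are raised in wasting muscle, were low at day 9 alone. Trim63 stood at 183, 169 and 185 CPM at day 0, 216, 191 and 206 CPM at day 3 and 55.6, 66.8 and 50.5 CPM at day 9. No day 9 library reached the other days. Trim63 fell 3.1-fold below day 0 and 3.54-fold below day 3 (edgeR adjusted p = 0.000187 and 0.00157), while the skeletal muscle list had a median of -0.60. Fbxo32 was at 314, 274 and 297 CPM at day 0, 565, 349.8 and 359.6 CPM at day 3 and 155, 128 and 134 CPM at day 9 (2.12-fold and 3.05-fold lower, adjusted p = 0.00593 and 0.00578). Aox1, an aldehyde oxidase, had a like course with little spread, at 46.8, 42.3 and 45.6 CPM at day 0, 49.7, 45.4 and 46.3 CPM at day 3 and 21.1, 20.3 and 19.9 CPM at day 9 (2.2-fold below day 0, adjusted p = 0.000187). The embryonic and perinatal myosin genes Myh3 and Myh8, which regenerating muscle uses, were higher in day 9 replicates 1 and 4 than in replicate 3. Myh8 was at 4.45, 6.43 and 4.05 CPM at day 0 and 79.4, 5.23 and 44.3 CPM at day 9, and Myh3 at 5.09, 2.5 and 2.93 and 37.9, 6.46 and 23.9 CPM. Neither passed (adjusted p = 0.0882 and 0.147), and both had an adjusted p under 0.05 in the fit of the 6 libraries (0.0226 and 0.0125).

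Several B cell genes were lower. Of 11 B and plasma cell genes 5 fell and 1, Xbp1, rose, with a median of -1.67. Over all genes tested, 5.54% were called lower and 15.2% higher. The list summed to between 247.6 and 423.5 CPM at day 0 and between 308.1 and 367.1 CPM at day 9, ranges that overlapped. Cd79a, a chain of the B cell receptor, was at 33.4, 37 and 51.7 CPM at day 0 and 10.1, 10.8 and 9.03 CPM at day 9, ranges far apart (4.07-fold lower, edgeR adjusted p = 0.0269). Fcmr and Fcer2a, Fc receptors of B cells, were 5.67-fold and 5.61-fold lower (adjusted p = 0.032 and 0.0357). With the day 3 libraries in the fit, where Cd79a was at 15.1, 17.2 and 2.81 CPM, these calls were fragile. The 5 list genes became 1 without any day 0 library or day 9 replicate 3, 2 without day 9 replicate 1 and 0 without day 9 replicate 4. They also became 0 with replicate numbers as a block, and without day 0 replicate 3 and day 9 replicate 1 together. In the fit of the 6 libraries 7 fell, and Cd79a had an adjusted p of 0.000334. The calls of Cd79a, Fcmr and Fcer2a ended without any 1 of the day 0 or day 9 libraries, with adjusted p of 0.0599 to 0.0986, 0.0653 to 0.107 and 0.0735 to 0.121. Of 15 T and NK cell genes none passed in either direction, with a median of -0.81. In the fit of the 6 libraries 5 of them fell, against 3014 of 14617 genes.

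Lung, vessel and blood transcripts were lower in all day 9 libraries, mostly without passing in the fit with day 3. Sftpc, the surfactant protein C gene of alveolar type 2 cells, was at 2916, 2973 and 2664 CPM at day 0, 51.6, 3157 and 24 CPM at day 3 and 319.5, 1375 and 1497 CPM at day 9 (edgeR adjusted p = 0.512). The 3 day 9 libraries lay below day 0, replicate 1 by far the most. Scgb1a1, the secretory protein of club cells in airways, was at 4619, 4497 and 4366 CPM at day 0 and 184, 1396 and 1528 CPM at day 9, and Ager, a marker of alveolar type 1 cells, at 584, 539 and 492 and 40.4, 191 and 243 CPM. Of 12 alveolar type 2, 12 alveolar type 1 and 9 airway genes, 1, 2 and 0 fell, and 11, 11 and 8 had ranges that were lower without overlap. Over all 14794 genes tested, 820 fell and 4174 had ranges that were lower without overlap. In the fit of the 6 libraries 6, 11 and 8 fell, against 3014 of 14617 genes. Pdpn, which marks alveolar type 1 cells but also mesothelium, lymphatic vessels and macrophages, rose 2.7-fold, from 43.5, 38.5 and 42.4 to 101, 132 and 103 CPM (adjusted p = 0.000931).

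Of 15 endothelial genes 5 fell and none rose, with a median of -0.85, against 5.54% of all genes tested called lower. In the fit of the 6 libraries 13 fell, against 3014 of 14617 genes. The 5 became 1 without any day 0 library or day 9 replicate 1 or 3, 2 without day 9 replicate 4, 8 without day 3 replicate 1 and 13 without day 3 replicate 3. Ednrb, an endothelin receptor of lung capillaries, went from 45.1, 40.9 and 54.6 to 19.1, 29.2 and 27.5 CPM (1.86-fold lower, edgeR adjusted p = 0.00861) and was at 51, 58.2 and 57.7 CPM at day 3. Pecam1 and Cdh5, junction proteins of all endothelium, were at 137, 179 and 205 and 158, 226 and 236 CPM at day 9 against 320.0, 298 and 320.1 and 419, 396 and 425 CPM at day 0 (adjusted p = 0.0549 and 0.0588, and 0.00369 and 0.00232 in the fit of the 6 libraries). The globin genes Hba-a1 and Hbb-bs, from red cells in the tissue, were 2.95-fold and 2.67-fold lower without passing (adjusted p = 0.0672 and 0.083). Hba-a1 was at 2710.5, 2916 and 1924 CPM at day 0 and 528, 1208 and 825 CPM at day 9. None of 7 erythroid genes passed in the fit with day 3 and all 7 fell in that of the 6 libraries, against 3014 of 14617 genes.

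Outside the mitochondrial genes, muscle transcripts lost the most CPM. Myh4, the fast myosin heavy chain, was at 38454, 30497 and 24825 CPM at day 0 and 21046, 21565 and 14934 CPM at day 9, and Ckm, the muscle creatine kinase, at 12391, 11244 and 9025 and 7839, 7296 and 6427 CPM. All day 9 libraries were below all day 0 libraries. Neither passed (edgeR adjusted p = 0.335 and 0.209), nor did any of 15 skeletal muscle genes with day 3 in the fit, while 12 fell in the fit of the 6 libraries. Of 16 nuclear genes of oxidative phosphorylation, none passed in the former and 13 fell in the latter, with a median of -0.36. Over all genes, 3014 of 14617 fell in the fit of the 6 libraries. In muscle, lung, vessel and blood lists alike, less of a tissue in a sample and less RNA per cell cannot be told apart.

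**Figure D4:**
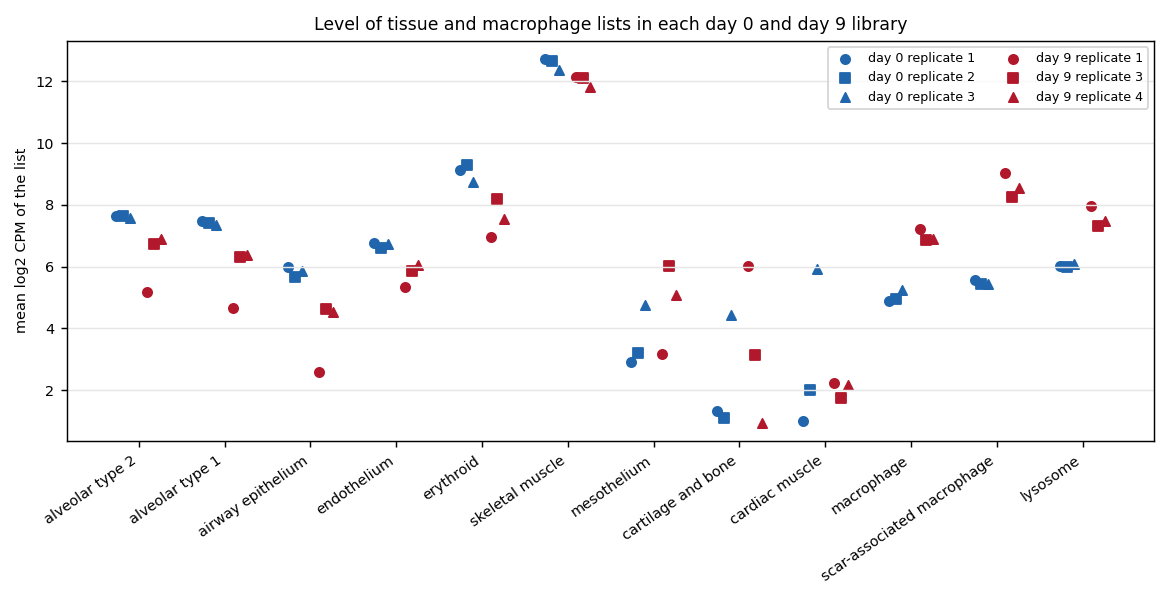
Mean log2 CPM of 12 gene lists (x axis) in each day 0 (blue) and day 9 (red) library, with the replicate given by the symbol. Alveolar, airway, endothelial and erythroid lists are lower in all day 9 libraries, and macrophage and lysosome lists are higher in all of them. Day 9 replicate 1 has the lowest alveolar and the highest lysosome mean. Day 0 replicate 3 stands apart from the other day 0 libraries in the cardiac and cartilage lists.

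Some cartilage and heart transcripts differed widely between libraries of the same day. Col2a1, the cartilage collagen, was at 0.761, 0.812 and 335 CPM at day 0 and 1269, 92.3 and 1.24 CPM at day 9, so that it was high in day 0 replicate 3 and in day 9 replicates 1 and 3. It did not pass (edgeR adjusted p = 0.629), and none of 14 cartilage and bone genes did. The cardiac list summed to between 56.53 and 946.6 CPM at day 0 and between 188.3 and 349.9 CPM at day 9. Of its 8 genes tested, 1 was called lower, Myh6, and none higher. In the fit of the 6 libraries 1 was higher and 1 lower. Myh6 was at 2.98, 15.8 and 494 CPM at day 0 and 1.96, 1.64 and 2.26 CPM at day 9, and its call as lower (adjusted p = 0.0379) ended without day 0 replicate 3 (0.135) or without day 9 replicate 1, 3 or 4 (0.116, 0.124 and 0.122), within 0.000148 to 0.405 over all alternatives. With the cartilage and bone mean as a covariate, 2125 genes were higher and 1014 lower.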

How the data were processed

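The deposited table gives a raw read count per gene and library for 25652 genes, and the authors' aligner and counter are not named in the sources read here. GRCm38 and mm10 are named in the submitters' processing notes. Of 25597 gene identifiers shared with GENCODE M21, 567 had the start given in the table, so no coordinates are taken from it. The table also holds the authors' log2 fold change and their FDR-adjusted p-value for day 9 against day 0, used only to count calls. The authors' 27 other per-sample columns were not used, and 3 emptied lines were left out. Strand is not stated, so reads of overlapping, antisense or paralogous genes may be shared. RNA was selected by poly(A), per the labels' protocols.

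The counts were analysed with edgeR 4.0.16, limma 3.58.1 and DESeq2 1.42.0 in R 4.3.3. After filterByExpr, 14794 genes were scaled by TMM and tested with the quasi-likelihood F test on all 9 libraries, with 1 mean per day and two-sided Benjamini-Hochberg adjusted p, and 6 residual degrees of freedom. The script was checked on simulated data. Library pairs of a day differed by more than the noise of counting reads (chi-square of 8.35 to 38.9 per degree of freedom), and each was counted once. Technical differences can exceed that noise too, so it cannot say whether the libraries came from separate mice. The 41 lists held 624 genes, of which 602 were tested. Members and lists were chosen with earlier results of these data known. Named genes were the first 3 of a list and up to 4 more that passed by smallest p, the 12 of largest and smallest fold change or smallest p, and the 10 of largest gain or loss in CPM, with Egr2, Atp6v0d2, Bnip3, Col5a1, Col5a2, Col5a3, Col6a3 and Col8a1 added after their values were seen. Alternatives changed the libraries, tool, scaling, filter, block or a tissue covariate. Plots were made in Python 3.11.15 with matplotlib 3.10.9.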

Additional observations from a re-analysis of the deposited data

How the results depend on the processing

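Retnla, Chil3, Pdgfra, Pdgfrb, Dpep1, Xbp1, Clu and Wt1 were not followed gene by gene under the 22 alternatives. Of the 154 other named genes, 115 kept their direction and side of the threshold in all. Of the 3384 results 3246 did so, 83 lost a call, 51 gained one and 4 changed sign. The sign changes were in 2 genes that had not passed, S100a8 (0.0506 on the log2 scale with replicate numbers as a block) and Col2a1 (-0.84 with that block, -2.95 with the alveolar type 2 covariate and, without 1 library at a time, -1.26 to 9.16). The count of genes higher was 2246, and 1381 to 2797 without 1 library at a time. The count of genes lower was 820, and 273 to 2221 without 1 library at a time. Lower genes numbered 3014 in the fit of the 6 libraries, 1512 with DESeq2, 536 with library totals as the only scaling and 2246 with the alveolar type 2 covariate. The cause of these moves was not tested, beside the spread of lung genes at day 3 given above. With library totals only, the median of all genes shifted to 0.106 on the log2 scale. Without day 0 replicate 3 and day 9 replicate 1 together, chosen after seeing the data, 1099 were higher and 113 lower.

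The labels do not state that replicate numbers pair the samples. Days 0 and 9 share only numbers 1 and 3, and deviations of same-numbered libraries correlated at -0.15 and -0.0247. Libraries of unlike number ran from -0.224 to 0.18, and so few pairs cannot decide whether the numbers mark a pairing. A block by replicate number left 777 higher and 123 lower genes. With 3 libraries a day, genes of low count and genes that vary between samples of 1 day are the least certain.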

Other observations

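Of 14 genes of glycolysis and hypoxia 4 rose and 1 fell, with a median of -0.09, against 15.2% and 5.54% of all genes tested. Slc2a1, the glucose transporter GLUT1, went from 17.1, 21.8 and 19.5 to 39.1, 52 and 40.3 CPM (2.25-fold, edgeR adjusted p = 0.00109). Pfkp, the platelet form of phosphofructokinase, rose 1.91-fold and Hif1a, the oxygen-regulated factor, 2.55-fold, and in each gene the day 9 libraries lay above all of day 0. The gene that fell was Bnip3, and the count of lower genes was 3 in the fit of the 6 libraries, 4 with the alveolar type 2 covariate, 2, 3 and 3 without day 3 replicate 1, 3 or 4 and 0 without day 9 replicate 4. Of 14 proliferation genes 2 rose, with a median of 0.39, near the 15.2% of all genes tested called higher. In the fit of the 6 libraries 5 rose, against 3318 of 14617 genes. Leaving out 1 library gave 1 (each day 0 library, and replicates 3 and 4 of day 9), 3 (replicate 4 of day 3) or 2. Pcna, the sliding clamp of DNA replication, went from 43.7, 48.3 and 44.6 to 76.7, 66.7 and 70.2 CPM (1.56-fold, adjusted p = 0.00236).

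Of 14 dendritic cell and class II genes none rose and 1 fell, with a median of -0.13, near the 5.54% of all genes tested called lower. In the fit of the 6 libraries 2 fell, against 3014 of 14617 genes. None of 10 mast cell and eosinophil genes passed, with a median of 0.48. In the fit of the 6 libraries 1 was higher and 1 lower, against 3318 and 3014 of 14617 genes. Of 16 adipocyte and lipid synthesis genes 1 fell, with a median of -1.05, near the 5.54% of all genes tested called lower. In the fit of the 6 libraries 6 fell, against 3014 of 14617 genes, and 3 fell with the alveolar type 2 covariate. The count was 0 without day 0 replicate 2 or 3 or any 1 of the day 9 libraries, 2 without day 0 replicate 1, and 3, 5 and 2 without day 3 replicate 1, 3 or 4. That list summed to between 2575 and 5817 CPM at day 0 and between 1470 and 2189 CPM at day 9. The 20 genes of muscle regeneration and denervation had a median of 0.21, with none higher and 3 lower, Trim63, Fbxo32 and Mstn, the last of which missed the threshold when either of replicates 1 and 2 of day 0, or of 3 and 4 of day 9, was dropped. There were 4 higher and 4 lower in the fit of the 6 libraries, near the shares over all genes (3318 and 3014 of 14617). Without day 3 replicate 1, 3 or 4 the higher numbered 1, 2 and 4.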
